A study of Mus musculus with 12 samples.

Results

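The genes described here are 10 genes of granulocytes, S100a8, S100a9, Ngp, Camp, Mpo, Elane, Prtn3, Ltf, Lcn2 and Retnlg, out of 34547 mouse genes with a matched transcript. They were chosen as known products of neutrophils with results on Ngp in medullary cells already known, so their levels, and the counts of them called in contrasts with medullary cells, are a description, and only their genotype contrast in cortical cells carries a p-value. RNA was sequenced from 12 libraries of sorted mouse thymic epithelial cells (TEC), which were cortical (cTEC, Ly51+UEA1-) or medullary (mTEC, Ly51-UEA1+). The cells came from C57BL/6 wild-type mice (WT) or from Aβ0/0 mice, which lack MHC class II molecules, with 3 libraries of each subset and genotype. Every library was made from a pool of 5 to 10 mice of 4 to 6 weeks of age, and all cells had been depleted of CD45+ cells and gated as EpCAM+CD45-. No group received a treatment.

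Neutrophils make their granule proteins in order as they mature in the bone marrow. Proteases and myeloperoxidase of the azurophil granules come first, the antimicrobial proteins of the specific granules follow, and receptors and cytosolic proteins such as S100A8 and S100A9 mark the mature cell. Several of these genes are also used by epithelia, as lactotransferrin, lipocalin 2 and the S100 proteins are in skin and mucosa, and mTEC are known for transcribing genes of many other tissues at low levels.

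The libraries held between 21710319 and 36139815 estimated counts. H2-Ab1, the gene disrupted in Aβ0/0 mice, was at 9055 to 11966 TPM (a level scaled to transcript length and library size) in the 6 WT libraries and at 2469 to 3956 TPM in the 6 Aβ0/0 libraries, which did not overlap. Which part of the gene these reads cover was not tested, so this checks the label by level only. The general epithelial keratins and Epcam summed to 4409 TPM or more in all 12 libraries. cTEC markers and Aire and the other mTEC markers followed the labels, with summed mTEC markers at 30.8 to 80.2 TPM in cTEC and 428 to 1517 TPM in mTEC. WT cTEC replicate 1 stood apart from the other cTEC libraries in the granulocyte genes, and values resting on it are given with and without it. Per the study's methods, the Aβ0/0 mTEC libraries came from fewer sorted cells than the WT ones, so cell number and genotype cannot be told apart in mTEC. WT cTEC also came from more cells than Aβ0/0 cTEC at each replicate number, and mTEC from more cells than cTEC in each pool, so the same holds for the other contrasts. The methods list both genotypes under each sorting, so a replicate block was fitted as an alternative and is given where it ends a call or moves a value.

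Promoter sequence is shown for 8 members, because the genes fall into sets by the short motifs upstream of their starts. These sets cut across the levels given below, since S100a8 and S100a9 lie in different sets. The sequences are from RefSeq (GRCm38.p6), where all 10 members had a promoter entry of 300 bases, 250 before and 50 after the start. They run 5′ to 3′ on the strand of the gene and end before its RefSeq start, though those of Mpo and Elane end 13 and 14 bases inside the GENCODE exon, and the RefSeq start of Prtn3 lies inside the longer GENCODE gene. Capitals mark an 8-base match. In the first set it is GAGGAAGT or its reverse complement ACTTCCTC, letters of the kind bound by PU.1, the myeloid factor encoded by Spi1.
Mpo, chr11:87793534-87793593, plus strand: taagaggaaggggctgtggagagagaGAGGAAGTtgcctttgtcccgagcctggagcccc
Elane, chr10:79886201-79886260, plus strand: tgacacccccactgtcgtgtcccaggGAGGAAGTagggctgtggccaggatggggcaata
Prtn3, chr10:79879546-79879605, plus strand: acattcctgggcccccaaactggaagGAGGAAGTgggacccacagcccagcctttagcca
S100a8, chr3:90668873-90668932, plus strand: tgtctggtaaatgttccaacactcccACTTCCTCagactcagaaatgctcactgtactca

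In the second set the capitals mark TTGCNNAA or its reverse complement TTNNGCAA, letters of the kind bound by C/EBP factors such as C/EBPε, the factor of specific granule genes.
Ngp, chr9:110419644-110419703, plus strand: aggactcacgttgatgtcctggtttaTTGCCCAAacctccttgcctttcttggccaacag
Ltf, chr9:111019191-111019250, plus strand: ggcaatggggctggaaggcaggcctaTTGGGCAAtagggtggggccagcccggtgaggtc
S100a9, chr3:90695924-90695971, minus strand: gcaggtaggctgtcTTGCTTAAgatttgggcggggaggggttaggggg
Retnlg, chr16:48872358-48872395, plus strand: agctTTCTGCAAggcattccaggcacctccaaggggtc

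The PU.1-type letters were in 4 of the 10 member promoters, all 3 azurophil genes and S100a8, against 3.20% of all 32851 promoter entries. The C/EBP-type letters were in 5, the 4 shown and Lcn2, against 10.8% of all entries. No member promoter held both, so the matches did not overlap, and Camp held neither. The motifs were picked after the promoters had been read, and a match describes letters, not a bound site. Spi1 was at 10.3, 5.72 and 7.76 TPM in WT mTEC, at 2.32, 0 and 1.27 TPM in Aβ0/0 mTEC, at 1.05, 0 and 1.38 TPM in WT cTEC and at 0 in Aβ0/0 cTEC. Cebpe was at 0.106, 0.346 and 0.715 TPM in WT mTEC, at 0.612 TPM in WT cTEC replicate 1 and under 0.05 TPM in the other 8 libraries. Both factors were named after their values had been seen.

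By position (GRCm38, from GENCODE M21), 3 of the specific granule genes lay on chromosome 9, Camp (ENSMUSG00000038357, 109847379 to 109849617), Ngp (ENSMUSG00000032484, 110419747 to 110423012) and Ltf (ENSMUSG00000032496, 111019271 to 111042767), with 570 kb between Camp and Ngp and 596 kb between Ngp and Ltf. S100a8 (ENSMUSG00000056054) and S100a9 (ENSMUSG00000056071) lay 22.6 kb apart on chromosome 3, and Prtn3 (ENSMUSG00000057729) and Elane (ENSMUSG00000020125) 3.07 kb apart on chromosome 10. Mpo (ENSMUSG00000009350) was on chromosome 11, Lcn2 (ENSMUSG00000026822) on chromosome 2 and Retnlg (ENSMUSG00000022651) on chromosome 16.

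S100a8 and S100a9 encode the 2 subunits of calprotectin, a calcium- and zinc-binding protein of neutrophils and of stressed keratinocytes, and they were the most abundant members in WT mTEC. S100a8 was at 1406, 967 and 1008 TPM in WT mTEC, and in Aβ0/0 mTEC it was at 122, 231 and 144 TPM. In cTEC it was at 137, 0 and 6.05 TPM in WT and at 0.147, 0.385 and 0.106 TPM in Aβ0/0. The WT mTEC libraries all lay above the others, the Aβ0/0 mTEC libraries came next, and only WT cTEC replicate 1 reached their range. S100a9 was at 449, 247 and 300 TPM in WT mTEC and at 72.0, 110 and 22.9 TPM in Aβ0/0 mTEC. In cTEC it was at 89.8 TPM in WT replicate 1, at 0 in the other WT libraries and at 0.0897 to 0.274 TPM in Aβ0/0. Its order over the groups was that of S100a8.

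The fitted log2 fold change of WT over Aβ0/0 mTEC was 2.56 (SE 0.37) for S100a8 and 2.07 (SE 0.59) for S100a9, the latter 2.83 without Aβ0/0 mTEC replicate 2. In Aβ0/0 mice S100a8 had 825, 2424 and 1185 counts in mTEC and 1, 4 and 1 in cTEC, and S100a9 had 522, 1245 and 202 against 2, 1 and 1, too few in cTEC for a fold change to be given. In WT mice the log2 difference of S100a8 between mTEC and cTEC was 4.81 (SE 1.57). It was 8.21, 4.17 and 4.32 without WT cTEC replicate 1, 2 and 3, and 6.84 with the replicate block. The TPM ratio of S100a8 to S100a9 was 3.13, 3.92 and 3.36 in WT mTEC, 1.69, 2.09 and 6.28 in Aβ0/0 mTEC and 1.52 in WT cTEC replicate 1. The deposited counts came almost wholly from S100a8-201 (98.6%), and from S100a9-201 (84.5%) and S100a9-202 (15.6%).

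**Figure D1:**
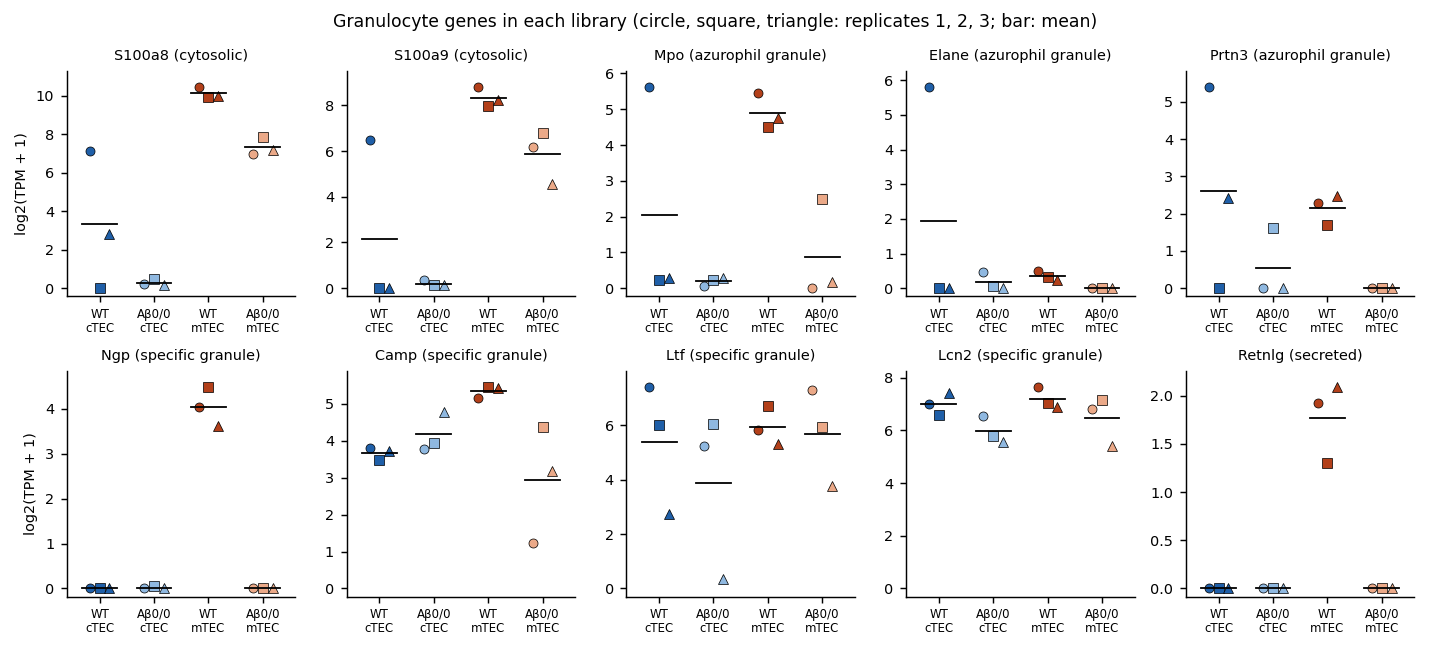
Level of each of the 10 granulocyte genes in each library, as log2(TPM + 1) against the 4 groups of 3 libraries, where the bar is the mean of the 3 log2 values. Ngp and Retnlg lay above 1 only in the WT mTEC libraries, whereas Elane was high in WT cTEC replicate 1 alone and Lcn2 was above 40 TPM in all 12 libraries.

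The azurophil granule genes did not share 1 pattern. Mpo encodes myeloperoxidase, which makes hypochlorous acid. It was at 42.8, 21.6 and 25.8 TPM in WT mTEC, and at 0, 4.63 and 0.117 TPM in Aβ0/0 mTEC. In cTEC it was at 48.5 TPM in WT replicate 1 and at 0.0468 to 0.212 TPM in the other 5 libraries. Elane encodes neutrophil elastase, and its level was 55.2 TPM in WT cTEC replicate 1 but 0.411, 0.245 and 0.177 TPM in WT mTEC, where it rested on 6, 6 and 4 counts. The other WT cTEC libraries and all Aβ0/0 mTEC libraries were at 0, and Aβ0/0 cTEC was at 0.373, 0.0404 and 0. Elane therefore did not accompany Mpo in WT mTEC. The TPM ratio of Mpo to Elane was 104, 88.1 and 146 there and 0.878 in WT cTEC replicate 1, although the WT mTEC ratios are imprecise at so few Elane counts.

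Prtn3, the gene of proteinase 3, was at 41.4, 0 and 4.39 TPM in WT cTEC, at 0, 2.09 and 0 in Aβ0/0 cTEC, at 3.85, 2.25 and 4.52 TPM in WT mTEC and at 0 in Aβ0/0 mTEC. Its transcripts differed between libraries. Protein-coding transcripts held 78.0% of the Prtn3 counts in WT cTEC replicate 1, but 22.8%, 29.7% and 17.2% in the WT mTEC libraries and 0% of the 74 counts in WT cTEC replicate 3. A retained-intron transcript held 69.8% of the counts of WT mTEC. The 5′ end of the longer Prtn3 model overlaps Plppr3 on the opposite strand and the libraries carry no strand, so reads of these genes cannot be told apart, and the same holds for Mpo and its antisense gene Gm11505. The log2 fold change of WT over Aβ0/0 mTEC was 3.78 (SE 1.68) for Mpo, which was 8.72 without Aβ0/0 mTEC replicate 2, where the other Aβ0/0 libraries held 0 and 6 counts, and 6.52 with the replicate block. Prtn3 was at least 18.8-fold higher in WT mTEC than 3 counts per library allow in Aβ0/0 mTEC. Elane did not pass the filter on low counts, and its WT mTEC level was at least 1.80-fold above that floor.

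**Figure D2:**
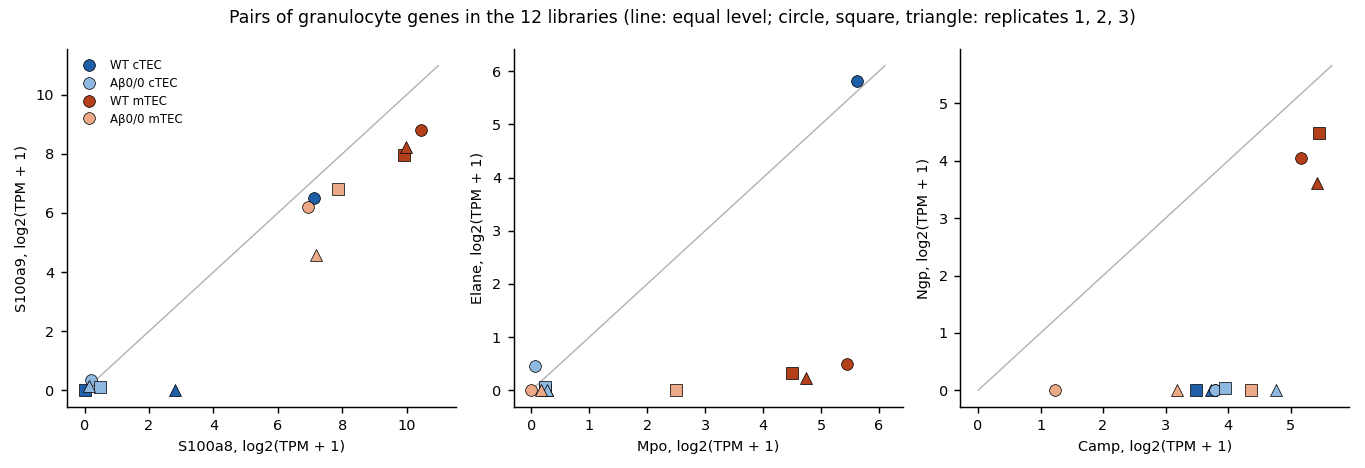
Levels of S100a9 against S100a8, Elane against Mpo, and Ngp against Camp in the 12 libraries, as log2(TPM + 1) with a grey line where both levels are equal. WT cTEC replicate 1 lies near the line for Mpo and Elane at 48.5 and 55.2 TPM, while the 3 WT mTEC libraries have Mpo at 21.6 TPM or more with Elane under 0.5 TPM, and Ngp lies above 0.1 TPM only in WT mTEC.

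Of the 4 specific granule members, Ngp was the one seen only in WT mTEC above the floor. Ngp encodes neutrophilic granule protein, a relative of the cathelicidins. Its level was 15.5, 21.4 and 11.3 TPM in WT mTEC, from 289, 670 and 326 counts of its single transcript. All 3 Aβ0/0 mTEC libraries and all 3 WT cTEC libraries had no count, and Aβ0/0 cTEC had 1 count in replicate 2. A count of 0 allows up to 3 counts, or 0.0951 to 0.121 CPM (counts scaled to the library total) in Aβ0/0 mTEC, for counting error only. Ngp was at least 135-fold higher in WT than that in Aβ0/0 mTEC, and at least 132-fold higher in mTEC than in cTEC of WT mice.

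Camp, the gene of the cathelicidin CRAMP, was found in all 12 libraries. It was at 34.8, 42.6 and 42.0 TPM in WT mTEC and at 1.35, 19.6 and 8.06 TPM in Aβ0/0 mTEC. In cTEC it was at 12.8, 10.2 and 12.3 TPM in WT and at 12.8, 14.4 and 26.4 TPM in Aβ0/0. WT mTEC was the highest group without overlap, while the other 3 groups overlapped each other. The log2 fold change of WT over Aβ0/0 mTEC was 1.78 (SE 0.94), or 3.00 without Aβ0/0 mTEC replicate 2 and 2.53 with the replicate block. That of mTEC over cTEC in WT mice was 1.80 (SE 0.39). The TPM ratio of Camp to Ngp was 2.24, 1.99 and 3.73 in WT mTEC. Outside WT mTEC, Camp was present where Ngp was not.

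Ltf (lactotransferrin, an iron-binding protein of granules and secretions) and Lcn2 (lipocalin 2, which binds bacterial siderophores) overlapped between the genotypes in mTEC and between the subsets of each genotype. Ltf was at 56.0, 103 and 38.4 TPM in WT mTEC, at 154, 60.1 and 12.5 TPM in Aβ0/0 mTEC, at 167, 63.0 and 5.74 TPM in WT cTEC and at 36.4, 65.6 and 0.277 TPM in Aβ0/0 cTEC. All 4 groups overlapped, with a log2 fold change in mTEC of -0.05 (SE 0.82), which was -0.73 without WT mTEC replicate 2 and 0.77 without Aβ0/0 mTEC replicate 1. Lcn2 was at 199, 132 and 117 TPM in WT mTEC and at 111, 141 and 41.8 TPM in Aβ0/0 mTEC. In cTEC it was at 125, 95.6 and 171 TPM in WT and at 92.7, 53.5 and 46.6 TPM in Aβ0/0. Lcn2 was thus above 40 TPM in every library, with WT cTEC above Aβ0/0 cTEC without overlap and a log2 fold change in mTEC of 0.44 (SE 0.47).

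Retnlg, a resistin-like secreted protein of bone marrow neutrophils, was at 2.80, 1.47 and 3.26 TPM in WT mTEC, from 23, 20 and 41 counts. The other 9 libraries had no count, so that Retnlg followed Ngp. It was at least 9.15-fold higher in WT mTEC than the floor of Aβ0/0 mTEC and at least 8.96-fold higher than that of WT cTEC.

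The 10 members together summed to 2209, 1540 and 1551 TPM in WT mTEC and to 461, 566 and 229 TPM in Aβ0/0 mTEC. They summed to 677, 169 and 199 TPM in WT cTEC and to 143, 136 and 73.7 TPM in Aβ0/0 cTEC. S100a8 made up 62.8% to 65.0% of the sum in WT mTEC. The log2 ratio of the mean sums, WT over Aβ0/0 mTEC, was 2.08, and it was 1.34 without S100a8 and 1.45 when counts were scaled by the library total without regard to length. In bulk RNA, fewer cells of a type and less RNA per cell cannot be told apart.

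Of the 10 members, 8 had all WT mTEC libraries above all Aβ0/0 mTEC libraries in TPM, where 19.4% of all genes tested did and 6.33% lay the other way, and 4 of the 9 that passed the filter on low counts were called by edgeR (S100a8, Ngp, Prtn3 and Retnlg), where 5.66% of all genes were and 5.32% were called higher in WT. The 4 calls became 0 with the replicate block, without a filter, with a filter on the mean count, in the fit on all 12 libraries and without any single WT mTEC library or Aβ0/0 mTEC replicate 3. Over all genes tested, each of these settings called from 0 to 27, against 1054 in the main fit. The choice of members drew on this contrast, so nothing is read from these counts. For WT mTEC against WT cTEC, 5 of 10 lay higher without overlap (28.4% of all genes tested) and 3 of 9 (Camp, Ngp and Retnlg) were called (26.8%, with 18.0% higher in mTEC and 8.81% in cTEC). Without WT cTEC replicate 1, an alternative added after the data had been seen, 7 lay higher without overlap (33.7% of all genes tested in that fit), and 6 of 9 were called (25.0%). Without WT cTEC replicate 2 there were 5 calls (26.9%), of which Prtn3 was higher in cTEC, and without WT mTEC replicate 2 or 3 there were 2 (17.7% and 18.3%). With the replicate block, which pairs subsets by pool, Camp and Ngp were called as before, S100a8 was added and Retnlg was lost (20.5%). For Aβ0/0, 2 of 10 lay higher in mTEC without overlap (12.7%), and the same 2 of 6 tested, S100a8 and S100a9, were called (5.60%, with 3.45% higher in mTEC and 2.15% in cTEC). Ngp and Retnlg in WT and S100a8 and S100a9 in Aβ0/0 had at most 4 counts in any cTEC library and passed the filter only through mTEC, where they were high, so nothing is read from the counts between subsets either.

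By edgeR, the genotype contrast within cTEC did not call any member. Of the 10, 5 passed the filter, and the quasi-likelihood test of edgeR, adjusted by Benjamini-Hochberg over 15432 genes, called none of them, where 0.0194% of all genes were called, while 2 had an unadjusted p under 0.05. DESeq2 called S100a8, which had not passed the filter and had 787, 0 and 57 counts in WT against 1, 4 and 1 in Aβ0/0 (adjusted p = 0.00821), but not without WT cTEC replicate 1 (adjusted p = 1.00), an alternative added after the data had been seen. Mpo had a log2 fold change of WT over Aβ0/0 of 6.49 (SE 2.08, adjusted p = 1.00), which was 0.34 without WT cTEC replicate 1. Lcn2 had 1.22 (SE 0.42, adjusted p = 1.00) and was the 1 member whose WT cTEC libraries all lay above the Aβ0/0 ones, where 3.46% of all genes did and 3.47% lay the other way. Camp was at -0.49 (SE 0.72, adjusted p = 1.00), Prtn3 at 4.37 (SE 2.47, adjusted p = 1.00) and Ltf at 1.03 (SE 1.55, adjusted p = 1.00). Without WT cTEC replicate 1, Prtn3 was at 1.86 and Ltf at -0.14, and without Aβ0/0 cTEC replicate 2, the 1 Aβ0/0 cTEC library with a count of Prtn3, Ltf was at 2.54. With the replicate block, Mpo was at 1.69, Prtn3 at 7.05 and Ltf at 1.98. In the test of whether the genotype effect differed between mTEC and cTEC, no member was called, where 0.0103% of all genes were, 0.00514% in each direction. Of the 9 tested, 2 had an unadjusted p under 0.05, where 1343 of 19461 genes did. DESeq2 called Ngp, where it called 407 of 28113 genes, and the members had been chosen on the mTEC values.

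WT cTEC replicate 1 had the highest summed level of the 10 genes among the 6 cTEC libraries, and 6 of the 10 were highest there, as were 14 of 64 further granulocyte genes (21.9%) and 15.9% of the 17646 genes above 3 counts in that library. With the other 5 cTEC libraries set to at least 3 counts each, 4 members (S100a8, S100a9, Mpo and Elane) were there at least 10-fold above the highest of them in CPM, as were 40 of the 17646 genes (0.227%). Among the 64 further genes 4 were (Ctsg, Ms4a3, Fcnb and Fcgr3, named after their values were seen). Ctsg, the azurophil protease cathepsin G, was at 12.5 TPM there, at 0 in the other cTEC and the Aβ0/0 mTEC libraries, and at 3.36, 1.85 and 0 TPM in WT mTEC. Ngp and Retnlg had no count in that library. Its erythroid markers summed to 1485 TPM, against 5.38 and 40.7 TPM in the other WT cTEC libraries, with Hbb-bs (β-globin, whose reads a near-identical copy may share) at 505, 0.206 and 9.08 TPM. Aβ0/0 cTEC replicate 2 had 434 TPM of erythroid markers with Mpo at 0.183 TPM and Elane at 0.0404 TPM. The part of these markers in the result was not tested.

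The wider list held 64 other granulocyte genes, sorted by granule, receptor or factor, with the members left out. In the genotype contrast of mTEC, 56 passed the filter, and the same edgeR test called 10, all higher in WT, or 17.9% against 5.66% of all genes tested (5.32% higher in WT). Their median log2 fold change was 0.85 against 0.0026 over all genes tested, and 31 of 64 had all WT libraries above all Aβ0/0 libraries (19.4% of all genes tested did), 1 (Mmp9, named for this count) the reverse (6.33%). Of the 10, 7 had no count in Aβ0/0 mTEC and passed the filter only through WT, where they were high, so neither the share called nor the median is read as support. The same holds for the shares given for the subsets below. The count of 10 rested on the fit. It was 0 with the replicate block (21 at an unadjusted p under 0.05), 0 without a filter, with a filter on the mean, in a fit on all 12 libraries and without any single WT mTEC library or Aβ0/0 mTEC replicate 2 or 3, 18 without Aβ0/0 mTEC replicate 1, and 21 with DESeq2. The count over all genes moved too. It was 0 with the block (2929 at an unadjusted p under 0.05) and without any single WT mTEC library. It was 27 without a filter, 11 with a filter on the mean and 20 in the fit on all 12 libraries. Without Aβ0/0 mTEC replicate 2 or 3 it was 83 or 13. Without replicate 1 it was 2377 of 19774, and with DESeq2 2455 of 27301.

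Of the 10 called, 4 were of the specific granule. Ncf1, a subunit of the NADPH oxidase, was at 62.3 ± 19.5 TPM (SD, n = 3) in WT and 17.8 ± 9.77 TPM in Aβ0/0 mTEC (log2 fold change 1.76, SE 0.35, adjusted p = 0.0360). Olfm4, olfactomedin 4, was at 58.4 ± 14.2 TPM (SD, n = 3) and 18.7 ± 6.18 TPM (1.53, SE 0.31, adjusted p = 0.0366). Fcnb (ficolin B) and Itgb2l, an integrin β subunit, had no count in any Aβ0/0 mTEC library and were at least 14.5-fold and 27.6-fold above the floor in WT. Ms4a3, a membrane protein of granulocyte precursors, was the 1 azurophil gene called, at 7.97 ± 3.75 TPM (SD, n = 3) in WT and 0.0351 ± 0.0304 TPM in Aβ0/0 mTEC.

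The other 5 called genes had no count in Aβ0/0 mTEC. Fpr1, the receptor for formylated bacterial peptides, was at 2.06, 3.01 and 2.24 TPM in WT mTEC, at least 22.5-fold above the floor. C5ar1, the receptor for complement C5a, was at least 20.9-fold above it, Mcemp1 at least 10.4-fold, Trem1, an activating receptor of neutrophils, at least 8.64-fold, and Ifitm6 at least 14.1-fold. The transcription factors and gelatinase granule genes had no call (0 of 4 and 0 of 6 tested, with 0 and 1 at an unadjusted p under 0.05).

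In cTEC, 32 of the 64 passed the filter and edgeR called none between the genotypes, with 4 at an unadjusted p under 0.05, 1 called by DESeq2 and a median log2 fold change of -0.02. Over all genes, 333 of 15432 had an unadjusted p under 0.05, and DESeq2 called 120 of 23738. Between the subsets of WT mice, 30 of 56 were called by edgeR, 26 higher in mTEC and 4 higher in cTEC, or 53.6% against 26.8% of all genes tested. The 4 were Ptprc, Itgb2, Ltb4r1 and G0s2, of which Ptprc and Itgb2 are used by leukocytes in general. Specific granule genes made up 10 of the 26, out of 12 tested. In Aβ0/0 mice 10 of 37 were called, 7 higher in mTEC, or 27.0% against 5.60%. Without Aβ0/0 cTEC replicate 2 or Aβ0/0 mTEC replicate 3, 6 of 41 were called, where 350 of 16835 and 362 of 16807 genes were. Of the 64, 43 had their highest group mean in WT mTEC, where 31.5% of all genes in the fit over 12 libraries did. In the test of whether the genotype effect differed between the subsets, edgeR called none of the 57 tested, where 0.0103% of all genes were called. An unadjusted p under 0.05 was found for 7 of the 57 and for 1343 of 19461 genes. DESeq2 called 2 of 64, where it called 407 of 28113 genes.

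**Figure D3:**
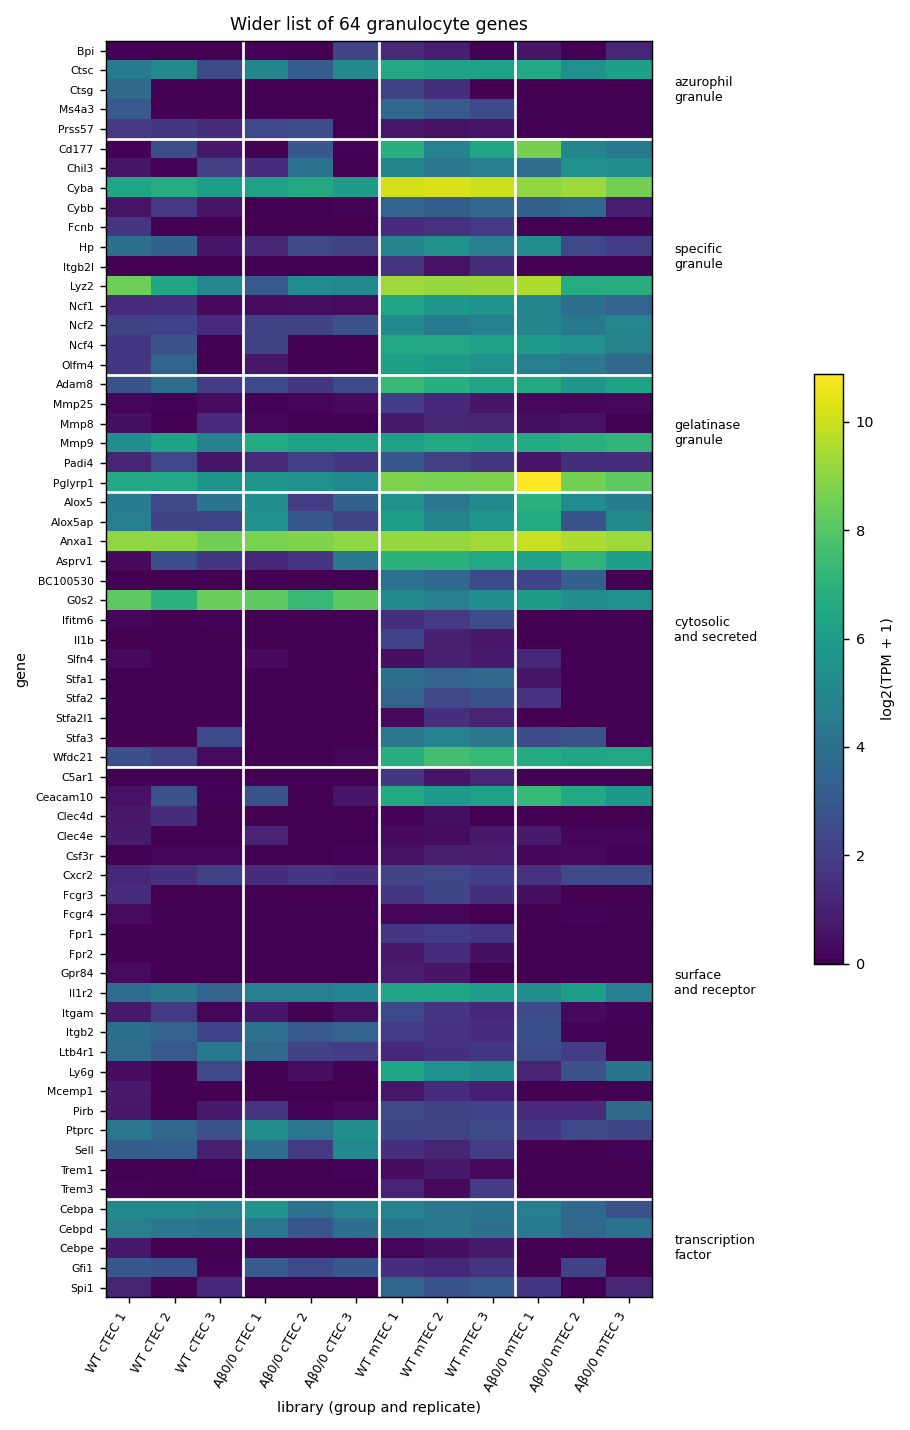
Level of the 64 genes of the wider granulocyte list in the 12 libraries, as log2(TPM + 1) in colour, with genes in rows grouped by role and libraries in columns. Specific granule rows such as Cyba, Ncf1 and Ncf4 are brighter in both mTEC groups while Fcnb and Itgb2l are dark in Aβ0/0 mTEC, the low receptor rows such as Fpr1 and C5ar1 are lit in WT mTEC, and Ctsg, Ms4a3 and Fcnb are lit in WT cTEC replicate 1.

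Granulocytes carry CD45, which the depletion and the gate were set to exclude, and their surface genes were read in each library. Ptprc, which encodes CD45, had counts in all 12 libraries, and whether cells with CD45 passed the gate was not tested. Ly6g, the surface marker of mouse neutrophils, was at 85.3, 44.2 and 36.2 TPM in WT mTEC and at 1.13, 5.54 and 17.8 TPM in Aβ0/0 mTEC. It was at 0.291, 0 and 4.14 TPM in WT cTEC, with 1 count in replicate 1, and at most 0.32 TPM in Aβ0/0 cTEC. WT mTEC thus lay above every other group. By edgeR, mTEC was called over cTEC in WT mice (log2 fold change 4.94, SE 1.51, adjusted p = 0.0447), while the genotype contrast in mTEC did not pass (2.57, SE 0.94, adjusted p = 0.241). The subset call of Ly6g passed in 7 of 13 fits (adjusted p by edgeR or DESeq2 up to 0.146) and was lost without a filter, in the fit on all 12 libraries and without WT cTEC replicate 1 or any single WT mTEC library. With 1, 0 and 86 counts in WT cTEC, Ly6g passed the filter only through mTEC, where it was high. Nothing is therefore read from this call or from the number of fits in which it passed. Csf3r, the receptor of the granulocyte growth factor G-CSF, was at 0.409, 0.883 and 0.795 TPM in WT mTEC and under 0.16 TPM elsewhere.

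Ptprc, which encodes CD45, went the other way. It was at 3.77, 3.70 and 4.79 TPM in WT mTEC and 2.35, 4.46 and 3.79 TPM in Aβ0/0 mTEC, but at 18.2, 10.9 and 5.53 TPM in WT cTEC and 18.2 to 41.3 TPM in Aβ0/0 cTEC. Ptprc was lower in mTEC than in cTEC in WT (-1.56, SE 0.36, adjusted p = 0.0151) and in Aβ0/0 mice (-2.98, SE 0.56, adjusted p = 0.0264). In WT the call of Ptprc passed in 9 of 13 fits (adjusted p by edgeR or DESeq2 up to 0.0716) and was lost in the fit on all 12 libraries and without WT cTEC replicate 1 or WT mTEC replicate 1 or 2. In Aβ0/0 it passed in 8 of 13 fits (up to 0.0916) and was lost with the replicate block (adjusted p = 0.0643) and without any single Aβ0/0 cTEC library or Aβ0/0 mTEC replicate 3. Itgam (CD11b) was at 4.27, 2.21 and 1.32 TPM in WT mTEC and 4.77, 0.211 and 0.0667 TPM in Aβ0/0 mTEC. Cxcr2, a chemokine receptor, was at 1.38 to 4.50 TPM in all 12 libraries, so these genes did not move together.

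Over the 11 defining surface and receptor genes, the summed level was 54.5 to 107 TPM in WT mTEC, 14.8 to 26.3 TPM in Aβ0/0 mTEC, 17.8 to 43.2 TPM in WT cTEC and 30.7 to 88.9 TPM in Aβ0/0 cTEC. None was at 0 throughout WT mTEC, while 4 (Fpr1, Fpr2, Trem1 and C5ar1) were in Aβ0/0 mTEC, 3 (Fpr1, Fpr2 and C5ar1) in WT cTEC and 2 (Fpr1 and Fpr2) in Aβ0/0 cTEC. In WT cTEC replicate 1, where Elane and Mpo were high, Fpr1, Fpr2 and C5ar1 had no count.

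Markers of other cells moved with the mTEC values as well. The 6 pan-leukocyte genes summed to 1300 to 1470 TPM in WT mTEC, of which Cd52 gave 825, 823 and 836 TPM, and to 392 to 605 TPM in Aβ0/0 mTEC, 137 to 315 TPM in WT cTEC and 226 to 293 TPM in Aβ0/0 cTEC. The 9 eosinophil or mast cell genes summed to 239 to 291 TPM in WT mTEC, 99.9 to 188 TPM in Aβ0/0 mTEC, 2.41 to 11.4 TPM in WT cTEC and 0.111 to 5.42 TPM in Aβ0/0 cTEC. Prg2, the major basic protein of eosinophils, led them at 147, 135 and 144 TPM in WT mTEC. None of them was at 0 throughout WT mTEC, and 2 were in Aβ0/0 mTEC (Cpa3 and Mcpt4), 3 in WT cTEC (Epx, Mcpt4 and Ms4a2) and 2 in Aβ0/0 cTEC (Mcpt4 and Ms4a2).

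The 13 macrophage, dendritic or B cell genes summed to 72.3 to 105 TPM in WT mTEC, 7.59 to 33.7 TPM in Aβ0/0 mTEC, 5.67 to 14.1 TPM in WT cTEC and 1.23 to 6.54 TPM in Aβ0/0 cTEC. The macrophage gene Adgre1 was at 0 throughout both Aβ0/0 groups, and Clec9a in all groups but WT mTEC. The 12 thymocyte genes had higher sums in cTEC than in mTEC and overlapped between the genotypes in mTEC, at 72.2 to 160 TPM in WT mTEC, 30.8 to 140 TPM in Aβ0/0 mTEC, 261 to 594 TPM in WT cTEC and 676 to 846 TPM in Aβ0/0 cTEC. Erythroid genes were at 565 to 818 TPM in WT mTEC and 209 to 1165 TPM in Aβ0/0 mTEC.

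Genes of the medulla and of other cell types were read in the same libraries. Aire, the regulator of tissue-restricted transcription in mTEC, was at 626, 275 and 243 TPM in WT and 111, 56.0 and 65.2 TPM in Aβ0/0 mTEC. The 10 keratinized epithelial genes summed to 1624 to 2101 TPM in WT mTEC and 777 to 2262 TPM in Aβ0/0 mTEC, which overlapped, and to 528 to 1185 TPM in WT cTEC and 361 to 462 TPM in Aβ0/0 cTEC. The 10 secretory epithelial genes summed to 7110 to 11098 TPM in WT mTEC and 12337 to 18428 TPM in Aβ0/0 mTEC. Wfdc18, a secreted protein with a whey acidic protein domain, gave 5548, 7883 and 9971 TPM of this in WT mTEC and 8500, 17219 and 14088 TPM in Aβ0/0 mTEC, which overlapped, so the sums of the list were largely those of 1 gene. The 4 endothelial genes summed to 8.05 to 34.0 TPM over all libraries, and the 5 fibroblast genes to 108 to 261 TPM in mTEC and 1593 to 2403 TPM in cTEC. The part of any of these lists in the members' levels was not tested.

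**Figure D4:**
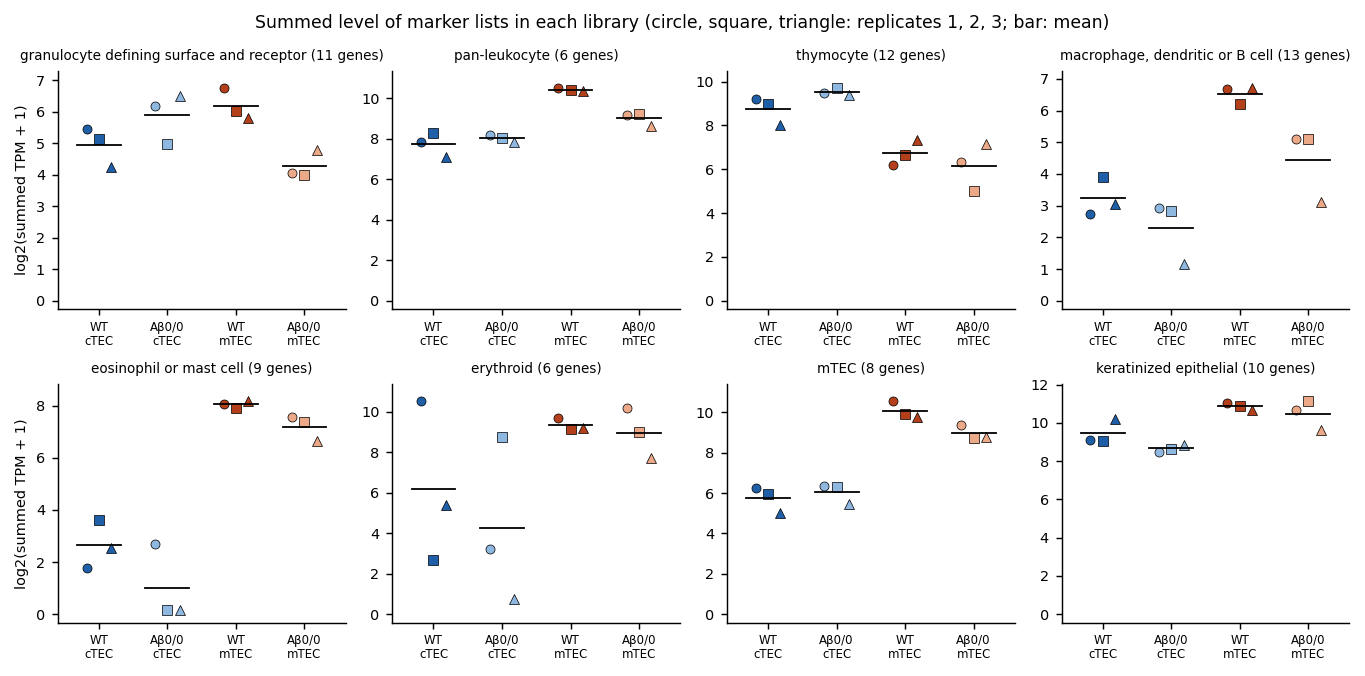
Summed level of 8 marker lists in each library, as log2(summed TPM + 1) against the 4 groups of 3 libraries, where the bar is the mean of the 3 log2 values. The pan-leukocyte, eosinophil or mast cell and mTEC lists lie highest in WT mTEC, the thymocyte list lies higher in cTEC, and the erythroid list is high in WT cTEC replicate 1 and Aβ0/0 cTEC replicate 2.

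The genes most like Ngp and S100a8 over the 12 libraries were taken by Pearson's r of log2(TPM + 1) among 15986 genes with a mean of at least 1 TPM. These r values describe libraries that share subset and genotype and carry no test. For Ngp they were Lce1a2, Lce3d and Lce3b, which encode late cornified envelope proteins of skin, Defb5, a defensin of epithelia, and Mup20, a major urinary protein made in liver, all at r = 0.999. Like Ngp, they were at 4.06 to 33.9 TPM on average in WT mTEC and at most at 0.0399 TPM on average in any other group. Lce and Mup genes have near-identical copies, so their reads may be split between copies. With a pseudocount of 0.1 in place of 1, 2 of the 5 stayed, and with the deposited rlog values or with no minimum level none did.

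For S100a8 the most similar gene was S100a9 (r = 0.975), followed by Fgd5 (0.947), Smoc1 (0.945), Gng4 (0.937) and Mybph (0.934). Gng4, a G protein subunit, was at 42.6 ± 5.16 TPM (SD, n = 3) in WT mTEC, 18.2 ± 2.45 TPM in Aβ0/0 mTEC, 2.45 ± 2.31 TPM in WT cTEC and 1.61 ± 2.11 TPM in Aβ0/0 cTEC. With the rlog values, 3 of the 5 stayed. Among the members, r was 0.95 for Ngp with Retnlg, 0.79 for Elane with Prtn3, -0.10 for Ngp with Elane and 0.69 for Ngp with S100a8.

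Neighbouring genes were read beside the members. Cfd, the gene of complement factor D, lies 2.64 kb from Elane and was at 3.73, 1.70 and 2.24 TPM in WT mTEC and at 0 in the other 9 libraries, so it followed Ngp and Retnlg rather than Elane. S100a7a, on the other side of S100a8 from S100a9, was at 15.3, 9.29 and 9.36 TPM in WT mTEC and at 0, 0.116 and 0 TPM in Aβ0/0 mTEC, with 4.20 TPM in WT cTEC replicate 1 and 8.49 TPM in Aβ0/0 cTEC replicate 1. Beside Ngp, Ptpn23 was at 4.68 to 22.6 TPM and Klhl18 at 0.249 to 9.56 TPM over the 12 libraries, with no library at 0. Beside Camp, Nme6 was at 20.6 to 61.1 TPM and Cdc25a at 3.45 to 24.2 TPM, and beside Ltf, Rtp3 was under 1.00 TPM throughout and Ccrl2 at 0.354 to 15.2 TPM. The pattern of Ngp over the groups was thus not that of the genes next to it.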

How the data were processed

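The SMART-Seq v4 kit used to amplify the RNA captures poly-A RNA and keeps no strand. Per the labels, the authors used bcl2fastq 2.20.0, Trim Galore, kallisto 0.43 and DESeq2. The deposited estimated counts and TPM were made by the authors with kallisto per transcript, and the deposited log2 values are the authors' rlog table of 34677 genes made with DESeq2. Of 109282 transcripts, 107987 matched GENCODE M21. The rest held 0.450% to 0.512% of the counts and were left out. Estimated counts and TPM were summed per gene, and counts rounded to whole numbers, which count models need. Amplified reads carry no molecular identifiers, so floors cover counting error only.

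Contrasts were fitted on their own 6 libraries with edgeR 4.0.16 (robust quasi-likelihood test, TMM, filterByExpr) in R 4.3.3, with Benjamini-Hochberg adjustment over all genes tested and a threshold of 0.05. The subset effect was compared between genotypes on all 12 libraries. SE is the absolute log2 fold change over the square root of F. A group at 0 in every library was given a floor of 3 counts per library. The scripts were checked on simulated counts. The members and lists were chosen with earlier results of these data known. All members were named, with wider-list genes called in a genotype contrast, Ptprc, Itgam, Csf3r, Cxcr2 and Ly6g, the 5 genes most like Ngp and S100a8, the nearest protein-coding neighbours and up to 3 genes of each marker list. The authors list cTEC and mTEC of each sorting together, so libraries of 1 genotype and number were taken as 1 pool. Departures from the group mean correlated within a pool at 0.219, 0.0381 and 0.0822 for WT and 0.240, 0.0912 and 0.0546 for Aβ0/0. Both genotypes are listed under each sorting too, so the number may mark a shared sorting. Between genotypes this correlation was 0.232, 0.0799 and 0.0526 in mTEC and 0.245, -0.0391 and 0.0576 in cTEC. Other steps used Python 3.11.15, pandas 2.3.3 and matplotlib 3.10.9. Replicates of a group were separate pools of mice, and p-values measure the spread between pools. Alternatives were RLE size factors, 2 other filters, DESeq2 1.42.0, a fit on all libraries, the replicate block and leaving out each library.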

Additional observations from a re-analysis of the deposited data

How the results depend on the processing

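For the 64 other granulocyte genes in the mTEC genotype contrast, the count of 10 called genes was 11 with RLE size factors. It was 0 without a filter, with a mean of at least 10 counts, in the fit on all 12 libraries and with the replicate block, 21 with DESeq2, and 0 to 18 without each replicate. Over all genes the same contrast called 1054 in the main analysis and 0 to 2455 under the alternatives. The cTEC genotype contrast called 0, and 1 with DESeq2. The replicate block left that 0 as it was and gave 29 of 56 in WT and 8 of 37 in Aβ0/0 between subsets, where the pool pairs the libraries, and the block on the pool left the 0 of the interaction, which was 2 with DESeq2. Between the subsets of WT mice the 30 became 20 to 42, while the 4997 calls over all genes became 2760 to 7572. For Aβ0/0 the 10 became 19 with DESeq2, 17 in the fit on all 12 libraries and 6 to 9 without each replicate. The 878 calls over all genes in Aβ0/0 became 338 to 2792. The summed TPM of the members had a log2 ratio of 2.08, which was 1.45 with CPM, 1.34 without S100a8 and 1.78 to 2.36 without each replicate. Of 288 alternative fold changes of the members, 276 kept their sign, and the other 12 were those of Ltf, Lcn2 and Prtn3. Where a gene had no count, a level of up to 3 counts per library could not be told from 0 at this depth.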

Other observations

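In the deposited rlog table, Elane stood at 14.999 in WT cTEC replicate 1, where it had 763 estimated counts, while S100a8, with 787 counts in the same library, stood at 9.68. The rlog values of Elane in the other 11 libraries were 3.51 to 4.15. No rlog value of Elane is given above, though the search for similar genes was also run on the rlog values.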
